A study of Mus musculus and Rattus norvegicus with 24 samples.

Results

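Single adult rat ventricular cardiomyocytes were set against single cardiomyocytes grown from mouse embryonic stem cells that had spent 30 days in culture. The 2 groups were taken by their sample titles, 8 cells each, and make up 16 of the 24 cells of the series. Adult cells carried the labels WT and adult and came from ventricular heart tissue, with no strain or animal named. Cultured cells carried the genotype mESCIsl1-Cre; Rosa-RFP; aMHC-GFP, and the number of differentiations or clones behind them is not given in the sources used here. The other 8 cells came from that mouse line too and were recovered after 30 days in neonatal rat hearts; their levels are set beside some results because they are mouse cells like the cultured ones. Cells were either sorted or picked under a microscope, and which way each was taken is not stated. Species and group coincide, and all libraries share the mouse build mm10 in the submitters' processing notes, so species, alignment and maturity cannot be told apart in any difference given here. The comparison asks how far cultured cells stand from the adult heart muscle cell, and since each group counts as 1 sample, no test between them was possible.

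A heart muscle cell is packed with sarcomeres, in which myosin thick filaments pull on actin thin filaments under the control of troponin and tropomyosin, and with mitochondria that supply the ATP. During maturation after birth, many of its parts change to another gene of the same family: troponin I passes from the slow skeletal to the cardiac form, several subunits of cytochrome oxidase pass to their heart and muscle forms, and fuel use moves from glucose toward fatty acids. The cell also leaves the cell cycle and stores oxygen on myoglobin and phosphate on creatine. Cardiomyocytes made from stem cells in a dish are known for keeping many features of the fetal heart.

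Counts per cell totalled 108546 to 223744 in adult cells and 16099 to 60789 in cultured cells, and each level below is the count scaled to 1000000 of the cell's or group's total (CPM). Ratios compare the sums over 8 cells, with exact 95% intervals in brackets that cover counting error only, since reads copied by PCR are not independent molecules. Brackets also name any cell without which the ratio moved by over 1.5 times or crossed the 4-fold line, and a value under 1 there is a turn to the other direction. Levels over cells are given from lowest to highest, so the groups overlap where these ranges do. Where a group had no count, the ratio was taken against 3 counts over that group (2.36 CPM in adult, 14.6 CPM in cultured cells) and is given as a bound. With 1 to 3 counts in a group the ratio printed is that of the counts themselves with its interval, which is wide, and brackets give the number where 1 or 2 counts were left; calls, the order by size and list medians set such sums to 3 counts. Members shown only by group sums or counts were in part picked after their values had been seen, to say what a list held. In the adult cells 50% of counts fell on 37 to 53 genes, and in the cultured cells on 51 to 341. Across pairs of cells, Spearman's rho of log2 levels had a median of 0.42 within the adult group, 0.02 between adult and cultured cells and 0.015 within the cultured group (28, 64 and 28 pairs, over 4155 genes, as a description of cells of unequal depth).

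The labelled cell type was checked against markers. Ventricular markers took 4.97 to 9.17% (median 6.11%) of the counts of an adult cell and 0 to 0.712% (median 0.0856%) of a cultured cell. Of the 82917 adult counts of this list Myl2 had 49215 and Myl3 33547. Both were at least 4-fold higher in adult cells, Myh7 was at least 4-fold lower, and Irx4 and Hey2 were at 0 in both groups. Genes of any cardiomyocyte took 3.37 to 5.13% (median 4.18%) and 0 to 16.8% (median 2.75%), and Nkx2-5 and Mybpc3 of that list had no cultured count. All 4 measured atrial markers were lower in adult cells, 3 of them without an adult count, where 65.4% of all measured genes were lower. Atrial markers took 0 to 0.00716% (median 0%) of an adult and 0.00419 to 1.17% (median 0.0768%) of a cultured cell's counts. Over the 8 cultured cells they had 432 counts against 325 of the ventricular list, and the part of chamber type in the results was not tested. Cultured cells F, G and H held no count of Ttn, Myh6 or Tnnt2. Thin filament genes took 0.325% of the counts of F and 0% of those of G and H. Atrial markers took 0.471% in F, 0.132% in G and 0.00419% in H. Beyond these counts the identity of the 3 cells rests on the label. Markers of 8 other types summed to 0 to 0.164% in adult cells, and to 0 to 0.0180% without Acta2, which the smooth muscle list shares with fetal heart muscle. In cultured cells the same sums were 0 to 0.254% and 0 to 0.184%. Of the 31 such markers listed, 26 were at 0 over the adult cells, among them every endothelial, leukocyte, neural and glial one, and 12 over the cultured cells, among them Pecam1, Cdh5, Kdr, Dcn and Postn. Results without cells F to H and without each cell in turn are given below; the part of these other markers in the results was not tested.

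Of 4155 genes with at least 50 CPM in either group, 744 (17.9%) were at least 4-fold higher in adult cells, 2718 (65.4%) were at least 4-fold lower and 693 were neither. The median log2 ratio of the measured genes was -4.74. Much of the lower side was scattered: 1597 of the 2718 genes had counts in only 1 or 2 cultured cells, 91 in at least 6 and 9 in all 8. The higher side was more even, with 312 of 744 genes in 1 or 2 adult cells, 213 in at least 6 and 121 in all 8. The same 50 CPM is fewer counts over the 206178 of the cultured group than over the 1271528 of the adult group. Genes measured through the cultured group can thus show in few cells, and the part of depth in this contrast was not tested. Without any minimum level the split would be 744 higher to 6118 lower, 10.8% of calls in place of 21.5%. Scaling by TMM moved every log2 ratio by 0.92 and by DESeq2 size factors by 1.04, toward adult cells, and gave 941 and 967 genes higher; ratios below are on the plain totals. With cultured cells A to E alone the counts were 739 higher and 2459 lower. Of the 1987 lower genes that had no adult count, 1664 were also at 0 in the transplanted mouse cells, where 233 had over 3 counts. Genes on the 2 sides also differed in length, with a median of 2867 bp of exon for the higher and 6038 bp for the lower genes, against 4952 bp for all measured; the part of length was not tested.

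In 64 genes (1.54% of those measured) the lowest adult cell lay above the highest cultured cell, and in 3 (0.0722%) the highest adult cell lay below the lowest cultured cell. The 64 included 13 subunits of complex I, 19 of complexes III to V, the thin filament genes Actc1, Tnnc1, Tnni3, Tnnt2 and Tpm1, the light chains Myl2 and Myl3, and Pln and S100a1 of calcium handling. On the other side stood Npm1, a nucleolar chaperone of ribosome assembly, H19, an imprinted noncoding RNA of the fetus, and Rpph1, the RNA of ribonuclease P.

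**Figure D1:**
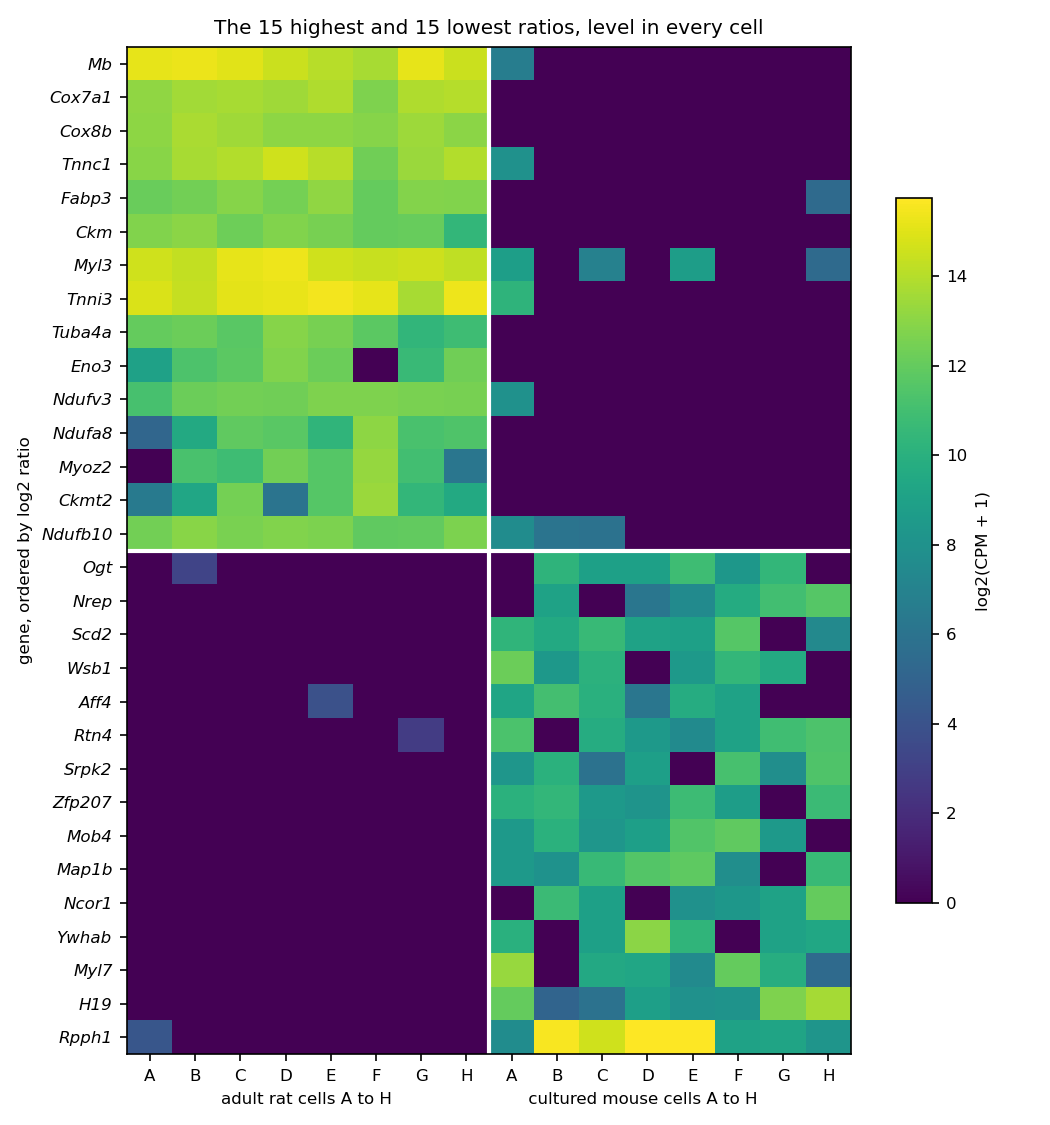
Level of the 15 highest and 15 lowest genes named by the rule of size, as log2(CPM + 1) in each of the 8 adult rat cells (left) and 8 cultured mouse cells (right), ordered by log2 ratio. The upper 15 genes fill the adult columns and are mostly at 0 in the cultured ones; the lower 15 are nearly empty in adult cells and patchy among cultured cells.

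By size, 4 of the 15 highest genes that met the rule encode sarcomere proteins (Tnnc1, Tnni3, Myl3 and Myoz2), 5 the respiratory chain (Cox7a1, Cox8b, Ndufv3, Ndufa8 and Ndufb10), 5 the handling of fuel, oxygen or phosphate (Mb, Fabp3, Ckm, Ckmt2 and Eno3), and 1 a tubulin (Tuba4a). Tnnc1, the calcium-binding troponin C of the heart (chr14:31208312-31211729, plus strand, mm10), ranged over 5131 to 25036 CPM (median 14292) in adult cells, and over 0 to 252 CPM (median 0) in cultured cells, all from cell A. It was 568-fold higher (243 to 1751, leaving out cultured A at least 856). Ckm, the muscle creatine kinase (chr7:19404776-19422841, plus strand), had 1344 to 8333 CPM (median 5417) and no cultured count, at least 359-fold higher. Its mitochondrial partner Ckmt2 (chr13:91853387-91876885, minus strand) was less even, at 65.1 to 10649.9 CPM (median 1067), at least 157-fold higher (leaving out adult F at least 103). Cox8b (chr7:140898945-140900446, minus strand), the muscle form of a cytochrome oxidase subunit, stood at 7435 to 13782 CPM (median 8598) without a cultured count, at least 659-fold higher. These 4 genes were counted in all 8 adult cells, and of the cultured cells only A had a count of any of them. Tuba4a, an alpha tubulin, had 1309 to 7488 CPM (median 3888) and Eno3, the muscle enolase, 0 to 6967 CPM (median 3032), with 0 in adult cell F; neither had a cultured count. Tuba4a was at least 267-fold higher, and for Eno3 the bound was 217-fold higher.

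At the other end, Rtn4, a protein of the endoplasmic reticulum (chr11:29692947-29744331, plus strand), had 1 count in the adult cells and 0 to 2554 CPM (median 693) in cultured cells, 1178-fold lower (209 to 46766, log2 ratio -8.62 with 1 set to 3 counts, leaving out adult G at least 339.6). Ogt, which adds N-acetylglucosamine to proteins (chrX:101640060-101684351, plus strand), likewise had 1 adult count and 0 to 1863 CPM (median 492) in cultured cells, 999-fold lower (177 to 39702, log2 ratio -8.38 with 1 set to 3 counts, leaving out adult B at least 302). Map1b, a microtubule protein best known from neurons (chr13:99421446-99516540, minus strand), ranged over 0 to 3603 CPM (median 951) in cultured cells and had no adult count, at least 475-fold lower. Each was found in at least 6 of 8 cultured cells. Ywhab, a 14-3-3 protein, was at least 623-fold lower (leaving out cultured D at least 181), and Scd2, a fatty acid desaturase, at least 372-fold lower. In the transplanted mouse cells Ywhab stood at 77.5 CPM and Mob4 at 50.7 CPM, while Rtn4, Ogt, Map1b and Scd2 had no count there either.

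The promoter windows of genes at both ends were searched for 3 short motifs of muscle and core promoters, and 4 windows that hold a match are shown as examples, 3 from the 15 highest genes and 1 from the 15 lowest. Windows are RefSeq's, on mouse build GRCm38.p6, from 250 bases before to 50 after a transcription start; 25 of the 30 genes matched, and the rat sequence was not used here. Searched on both strands were CTANNNNTAG (the site of MEF2 factors), CATTCC (the M-CAT site) and TATAAA, of which the first and last can overlap; capitals mark the matches, 5′ to 3′ on the gene's strand. Myoz2, a Z-disc protein of striated muscle, at chr3:123034938-123035237, minus strand, held the first. Cox8b, at chr7:140900397-140900696, minus strand, held TATAAA just after the annotated start. Myl3, the ventricular essential light chain, at chr9:110763428-110763727, plus strand, held CATTCC on each strand. Myl7, the atrial regulatory light chain that was among the 15 lowest, at chr11:5898733-5899032, minus strand, held it once.
Myoz2: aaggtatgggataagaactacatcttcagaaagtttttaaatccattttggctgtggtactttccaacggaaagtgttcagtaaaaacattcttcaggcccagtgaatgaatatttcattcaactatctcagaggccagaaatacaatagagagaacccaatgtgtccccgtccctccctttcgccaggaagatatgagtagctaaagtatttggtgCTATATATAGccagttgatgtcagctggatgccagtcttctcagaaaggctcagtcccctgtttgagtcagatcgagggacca
Cox8b: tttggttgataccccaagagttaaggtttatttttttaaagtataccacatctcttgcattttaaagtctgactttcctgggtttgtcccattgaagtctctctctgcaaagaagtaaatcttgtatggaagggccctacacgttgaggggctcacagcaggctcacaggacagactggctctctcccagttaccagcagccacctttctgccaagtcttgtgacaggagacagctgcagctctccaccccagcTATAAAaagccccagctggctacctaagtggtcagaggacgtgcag
Myl3: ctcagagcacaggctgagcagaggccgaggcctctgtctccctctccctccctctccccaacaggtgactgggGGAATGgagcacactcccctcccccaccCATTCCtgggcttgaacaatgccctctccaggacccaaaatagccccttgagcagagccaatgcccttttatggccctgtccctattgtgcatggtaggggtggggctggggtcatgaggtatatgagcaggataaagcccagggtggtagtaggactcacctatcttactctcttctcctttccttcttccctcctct
Myl7: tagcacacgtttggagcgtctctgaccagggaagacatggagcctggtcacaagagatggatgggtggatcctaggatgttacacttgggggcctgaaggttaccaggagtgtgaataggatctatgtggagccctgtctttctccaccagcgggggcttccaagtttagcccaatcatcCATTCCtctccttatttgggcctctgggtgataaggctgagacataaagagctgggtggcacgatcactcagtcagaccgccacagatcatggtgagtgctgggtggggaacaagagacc

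CTANNNNTAG was present in 1 of 17 windows of the highest genes and 1 of 17 of the lowest, against 3.69% of all 32851 windows. CATTCC was in 4 and 2 of them, against 14.7%, and TATAAA in 1 and 2, against 13.6%. Over all called genes, the first motif was in 3.67% of the windows of higher and 2.74% of those of lower genes, the second in 13.5% and 11.6%, and the third in 9.17% and 6.80%.

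Pairs of related genes give a share that no scaling of a library can move. Of 30 pairs listed, 22 had at least 20 counts in each group, and in 20 of them the muscle or adult form took the larger share in adult cells. Leaving out 1 cell gave 18 of 20 to 20 of 22 pairs and turned no pair, and cultured cells A to E alone gave 17 of 20, where Tpm4 had no count in either group. The 2 pairs that went the other way were Actc1 against Acta1 and Pygm against Pygb.

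**Figure D2:**
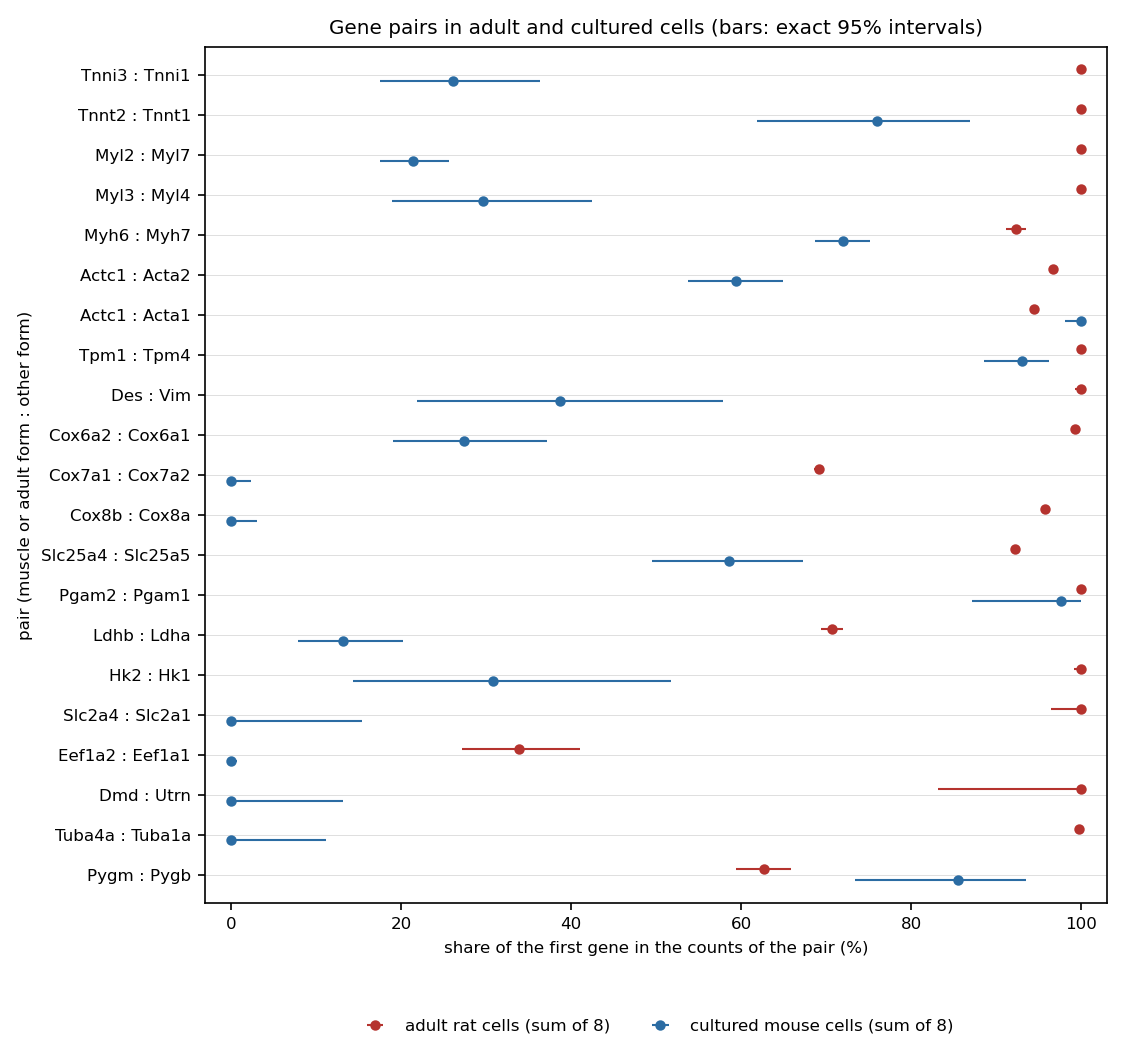
Share of the first gene in the summed counts of 21 of the 22 gene pairs, in percent, for 8 adult rat cells (red) and 8 cultured mouse cells (blue), with exact 95% intervals for counting error. Adult shares lie at or near 100% for most pairs, and cultured shares spread from 0 to 100%; in Actc1 : Acta1 and Pygm : Pygb the cultured share is the larger.

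Among contractile proteins the adult cells used 1 member of a family almost alone. Myl3 took 100% (99.99 to 100%) of its counts with Myl4, the atrial and embryonic essential light chain, in adult cells and 29.7% (18.9 to 42.4%) in cultured cells. Tnnt2, cardiac troponin T, took 100% (99.95 to 100%) with the slow skeletal Tnnt1 in adult cells and 76% (61.8 to 86.9%) in cultured cells. Without 1 cell this cultured share ran from 57.1 to 95%, and without cultured F 2 of the 12 cultured counts of Tnnt1 were left. For Des, the muscle intermediate filament, against Vim, its mesenchymal relative, the shares were 100% (99.2 to 100%) and 38.7% (21.9 to 57.8%). Without cultured F, 1 of 12 cultured counts of Des and 5 of 19 of Vim were left. Every adult cell with at least 10 counts of these 3 pairs stood at 100% of the first form. Only 2, 3 and 1 cultured cells held as many, at 23.1 to 53.8%, 0 to 100% and 44%. Myh6 and Myh7, the alpha and beta myosin heavy chains, of which rodents carry mostly alpha as adults, gave 92.3% (91.1 to 93.4%) and 72.02% (68.7 to 75.2%) of Myh6; adult cell D alone was at 46.2%, the other adult cells at 91.3% or more. Actc1, cardiac actin, against Acta2, smooth muscle actin, gave 96.7% (96.4 to 96.9%) and 59.4% (53.8 to 64.9%). Against Acta1, skeletal actin, it went the other way, with 94.4% (94.1 to 94.7%) in adult and 100% (98.04 to 100%) in cultured cells; reads of such close copies may be split between them.

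Enzyme and transporter pairs lay the same way, with 1 exception. Cox6a2, the heart and muscle form of a cytochrome oxidase subunit, took 99.3% (99.1 to 99.4%) of its pair with the liver form Cox6a1 in adult cells, and 27.5% (19.1 to 37.2%) in cultured cells. Cox8b against Cox8a was at 95.8% (95.4 to 96.1%) and 0% (0 to 3.10%), with no cultured cell holding the muscle form. Ldhb, the heart lactate dehydrogenase, made up 70.7% (69.4 to 71.9%) of its pair with Ldha in adult cells and 13.2% (7.87 to 20.3%) in cultured cells. Single adult cells ranged from 6.06 to 100% in this pair, and single cultured cells from 0 to 30.0%, so the cells overlapped. Hk2 against Hk1, the hexokinases of muscle and of most tissues, gave 100% (99.1 to 100%) and 30.8% (14.3 to 51.8%); without 1 cell the cultured share ran from 5.26 to 53.3%. For the glucose transporters, insulin-dependent Slc2a4 took 100% (96.4 to 100%) against Slc2a1 in adult and 0% (0 to 15.4%) in cultured cells, resting on 101 and 22 counts, 94 of the former in adult cell C. Pygm, the muscle glycogen phosphorylase, was the exception, at 62.6% (59.3 to 65.9%) in adult and 85.5% (73.3 to 93.5%) in cultured cells, where all 47 of its counts came from cell B.

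Of 11 measured thin filament genes 7 (63.6%) were higher in adult cells and 2 (18.2%) lower, against 17.9% and 65.4% of all measured genes. The list's median log2 ratio was 5.04 (4.23 without adult F to 5.26 without cultured A), beside -4.74 over all measured genes. Thin filament genes took 7.47 to 12.2% (median 11.01%) of the counts of an adult cell and 0 to 1.14% (median 0.217%) of a cultured cell, and the groups did not overlap. Tpm1, the alpha tropomyosin that covers actin, ranged over 25541 to 45971 CPM (median 37633) and 0 to 3332 CPM (median 424), 39.9-fold higher (34.6 to 46.4). Actc1 had 10220 to 26298 CPM (median 12994) in adult and 0 to 5654 CPM (median 151) in cultured cells, where cell A was the highest; it was 16.9-fold higher (14.6 to 19.6, leaving out cultured A 38.3). Tnnt2 was 32.8-fold higher (23.9 to 46.4, leaving out cultured D 67.4), from 0 to 789 CPM (median 0) to 2434 to 8461 CPM (median 5914). Lmod2, which lengthens thin filaments, stood at 618 against 0 CPM. The 2 lower members were Tmod1 and Nebl, at 25.95 against 155 CPM and 0 against 131 CPM, the latter from 1 cultured cell and the former from 1 adult and 3 cultured cells.

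Thick filament genes were mixed, with 4 of 12 higher and 6 lower and a median of -1.56 (-1.90 without adult B to -1.03 without cultured C); this was 50% lower and 33.3% higher, against 65.4% and 17.9% of all measured genes. The light chains Myl2 and Myl3 and myosin-binding protein C were on the higher side: Myl3 went from 0 to 454 CPM (median 20.9) to 19319.7 to 40910 CPM (median 24192), 286-fold higher (183 to 476, leaving out cultured A 492), and Mybpc3 from no count to 0 to 692 CPM (median 359), at least 22.3-fold higher. Ttn encodes titin, a molecular spring that runs from the Z-disc to the middle of the sarcomere. It was 11.1-fold lower (10.7 to 11.5), at 1206 to 8651 CPM (median 3034) in adult and 0 to 150806 CPM (median 22438) in cultured cells. Its cultured counts lay in cells B to E, with 14 in A and none in F to H. Myh7 was on the same side, 8.59-fold lower (6.96 to 10.6, leaving out adult D 61.6, cultured C 4.33), with 0 to 886 CPM (median 8.84) in adult cells, and 136 of its 155 adult counts were in cell D. Myh6 was neither and lay on the other side of 1 under TMM scaling, at 628 to 2994 CPM (median 1346) and 0 to 10758 CPM (median 231), 1.84-fold lower (1.67 to 2.02, leaving out cultured D 0.980). Smyd1, a methyltransferase needed for myofibril assembly, and Unc45b, a myosin chaperone, were at 2.36 against 1101 CPM and 0.786 against 150.4 CPM. Over cultured cells A to E alone the list's median was -2.11.

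Z-disc genes, which anchor thin filaments and sense strain, were higher in 12 of 18 cases and lower in 1, median 3.01 (2.78 without adult B to 3.91 without adult G). That is 66.7% higher and 5.56% lower, beside 17.9% and 65.4% of all measured genes. The list's share of counts was 0.780 to 2.84% (median 2.25%) in adult and 0 to 0.538% (median 0.204%) in cultured cells, without overlap. Csrp3, the muscle LIM protein, ranged over 1082 to 10797 CPM (median 6322) and 0 to 1180.2 CPM (median 0) and was 57.1-fold higher (36.9 to 93.5, leaving out cultured E 1052 on 1 count). Cryab, a small heat shock protein bound to desmin and titin, had 2312 to 5309 CPM (median 3393) and 0 to 858 CPM (median 0), 27.1-fold higher (18.7 to 40.8, leaving out cultured A 62.3, cultured C 41.03). Myoz2 had 0 to 9627 CPM (median 2199.5) and no cultured count, at least 173-fold higher; adult cell A was at 0. Actn2, alpha-actinin, was 19.5-fold higher (11.6 to 35.8, leaving out cultured D 118 on 2 counts). Xirp1, an actin-binding protein of the intercalated disc, was the 1 lower member, 13.7-fold lower (8.57 to 22.5, leaving out adult B 20.98, cultured D 0.792). Tcap, Hspb6 and Ankrd1 had no cultured count and stood at 483, 855 and 659 CPM in adult cells.

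Genes known from the fetal heart, smooth muscle or nonmuscle cells were lower in 10 of 13 cases and higher in 2, median -5.26 (-6.13 without cultured F to -4.88 without cultured A). That is 76.9% lower and 15.4% higher, beside 65.4% and 17.9% of all measured genes, whose median was -4.74. Of these 13 genes, 8 had no adult count, among them Myl4, Myl9, Tpm2, Tpm4 and Myh10. Actb, cytoplasmic actin, was at 0 to 80.5 CPM (median 40.3) in adult and 0 to 3247 CPM (median 1426) in cultured cells, 38.2-fold lower (27.9 to 53.4). Acta2 was neither and lay on the other side of 1 under TMM scaling, at 0 to 1640.3 CPM (median 125) and 0 to 1767 CPM (median 22.1), 1.18-fold lower (0.965 to 1.42, leaving out adult A 2.16, cultured B 0.709); adult cell A held 367 of its 666 counts. Nppb, the B-type natriuretic peptide and a fetal gene that adult hearts raise again under load, went against the list: it was found in all 8 adult cells at 4.47 to 1777 CPM (median 127) and in no cultured cell, at least 29.9-fold higher (leaving out adult E at least 18.5). Tnni2, the fast skeletal troponin I, did so as well, but its 348 counts all came from adult cell A.

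Calcium handling genes were split, with 5 of 14 higher, 4 lower and a median of 0.29 (-0.30 without adult C to 0.55 without adult H), or 28.6% lower and 35.7% higher where all measured genes gave 65.4% and 17.9%. S100a1, a calcium sensor that acts on the calcium pump and the ryanodine receptor, had 2469 to 5581 CPM (median 4398) and 0 to 265 CPM (median 0), 97.8-fold higher (51.5 to 214, leaving out cultured G 261). Atp2a2, the calcium pump of the sarcoplasmic reticulum, had 612 to 10922 CPM (median 2145) and 0 to 1464 CPM (median 30.2), 10.4-fold higher (8.21 to 13.3, leaving out adult H 6.13, cultured A 15.9). Against the others, Slc8a1, the sodium-calcium exchanger, ranged over 0 to 42.3 CPM (median 0) in adult and 0 to 6584 CPM (median 1152) in cultured cells, 263-fold lower (137 to 579.8, leaving out adult B 537). Its cultured counts were all in cells B to E, as were nearly all of Ttn's. Srl, sarcalumenin, which binds calcium inside the reticulum, was 16.4-fold lower (13.5 to 20.1, leaving out adult H 117), and Ryr2, the release channel, 3.42-fold lower (2.85 to 4.09, leaving out adult G 4.52, adult H 4.84). Asph, whose locus also encodes junctin, was 4.22-fold lower (3.30 to 5.38, leaving out adult A 3.48, adult B 3.83, adult D 3.71, adult E 3.76, adult F 3.86, adult G 9.89, adult H 3.52, cultured B 3.54, cultured D 2.25), so its side of the 4-fold line changed with many single cells.

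Surface channels and pumps were thinly counted, with 3 of 9 measured genes higher and 2 lower (median 1.83, 1.33 without cultured B to 2.14 without adult A). That is 33.3% higher and 22.2% lower, beside 17.9% and 65.4% of all measured genes. In cells thinned to 16099 counts the median of this list was on the other side, at -1.42. Fxyd1, phospholemman, which regulates the sodium pump, had 0 to 1851 CPM (median 1386) in adult cells and no cultured count, at least 77.2-fold higher. Cacna1d, a calcium channel subunit of pacemaker and atrial cells, had no adult count and was in 2 cultured cells, at least 71.9-fold lower (leaving out cultured B at least 11.7). Genes of the intercalated disc and costamere, which join cells to each other and to the matrix, were lower in 11 of 21 cases and higher in 4, median -2.97 (-3.69 without adult F to -0.80 without cultured B). This share, 52.4% lower and 19% higher, lay less to the lower side than the 65.4% and 17.9% of all measured genes, whose median was -4.74. Gja1, the main ventricular gap junction protein, was among the higher, with 0 to 1225 CPM (median 24.9) in adult cells and no cultured count, at least 14.8-fold higher (leaving out adult F at least 8.27). Gja5, the gap junction protein of atria and conduction cells, was among the lower, but its 35 counts were all in cultured cell B. Ctnnb1, beta-catenin, and Dag1, dystroglycan, stood at 6.29 against 451 CPM and 0 against 175 CPM. Cav3, the muscle caveolin, was on the higher side, at least 32.7-fold higher (leaving out adult A at least 7.41), with 492 of 605 adult counts in cell A.

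The respiratory chain was higher in adult cells almost throughout, whereas 17.9% of all measured genes were higher and 65.4% lower. Of 36 measured nuclear subunits of complex I, 33 were higher and 0 lower, median 4.23 (3.78 without cultured B to 4.76 without cultured A); of 40 subunits of complexes III to V, 36 were higher and 0 lower, median 3.82 (3.33 without cultured B to 4.17 without cultured A). Complex I genes took 7.41 to 12.1% (median 10.9%) of an adult cell's counts and 0.0251 to 2.49% (median 0.554%) of a cultured cell's. Those of complexes III to V took 14.4 to 19.1% (median 17.6%) and 0.150 to 3.77% (median 0.813%). In the transplanted cells, which are mouse cells, the same lists took 11.4% and 17.9% of the summed counts. Ndufb9, an accessory subunit, had 4590.4 to 17632 CPM (median 7769) and 0 to 1147 CPM (median 0), 32.8-fold higher (25.4 to 43.3, leaving out cultured G 52.98). Cox4i1, a core nuclear subunit of cytochrome oxidase, had 8346 to 19454 CPM (median 11019) and 0 to 1111 CPM (median 0), 53.7-fold higher (40.4 to 73.1, leaving out cultured A 91.3, cultured G 102). Atp5e, a small subunit of the ATP synthase, had 6319.9 to 18412 CPM (median 10419) and 0 to 2272 CPM (median 487), 16.5-fold higher (14.003 to 19.5). The members that were neither included Cox6a1 and Cox8a, the forms of other tissues, at 92.02 against 359 CPM and 425 against 567 CPM, and Atpif1, an inhibitor of the ATP synthase, at 2139 against 1072 CPM.

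Fatty acid uptake and oxidation genes were higher in 21 of 26 cases and lower in 2, median 4.01 (3.75 without cultured D to 4.44 without cultured E). That is 80.8% higher and 7.69% lower, beside 17.9% and 65.4% of all measured genes. The list's share of counts did not overlap between the groups, at 2.13 to 3.87% (median 3.22%) and 0.0866 to 0.532% (median 0.190%). Ech1, an isomerase of unsaturated fatty acids, had 396 to 9761 CPM (median 3478) and 0 to 1040.0 CPM (median 0), 23.5-fold higher (17.2 to 33.1, leaving out cultured D 79.2). Etfb, which passes electrons from the dehydrogenases to the chain, had 13.02 to 8407 CPM (median 4179) and 0 to 1059 CPM (median 17.9), 14.4-fold higher (11.2 to 18.995, leaving out cultured G 21.7). Acot13, a thioesterase, was 59.5-fold higher (32.3 to 124, leaving out cultured A 538 on 1 count). Cd36, the fatty acid transporter, and Hadha, of the trifunctional protein, had no cultured count and stood at 918 and 513 CPM in adult cells. Lpl, the lipase that frees fatty acids at the vessel wall, was at 2105 against 659.6 CPM, under the 4-fold line. Hsdl2, a dehydrogenase-like protein of peroxisomes and mitochondria, was 8.65-fold lower (6.26 to 12.02, leaving out adult F 31.2, cultured B 3.79), and Pdk4, which restrains glucose oxidation, was on that side too, at 1.57 against 87.3 CPM.

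Citrate cycle genes were higher in 16 of 26 cases and lower in 1 (median 3.10, 2.61 without adult E to 3.23 without adult B). For this list and the next 2, all measured genes stood at 17.9% higher and 65.4% lower. Sdhb, the iron-sulphur subunit of succinate dehydrogenase, had 1895 to 9913 CPM (median 5831) and 0 to 2177 CPM (median 135), 10.8-fold higher (8.92 to 13.1, leaving out cultured H 18.2). Mdh2, the mitochondrial malate dehydrogenase, was 8.29-fold higher (6.55 to 10.6, leaving out cultured H 173), and Mdh1, its cytosolic form, 3.11-fold higher (2.76 to 3.53, leaving out cultured B 4.85). Carriers and import proteins were higher in 15 of 28 cases and lower in 2 (median 2.16, 1.80 without cultured B to 2.60 without cultured G). Slc25a3, the phosphate carrier, ranged over 73.7 to 3536 CPM (median 1037) and 0 to 62.1 CPM (median 0), 131-fold higher (36.3 to 1084, log2 ratio 6.45 with 2 set to 3 counts, leaving out adult H 84.7 on 2 counts, cultured A 237 on 1 count, cultured E 242 on 1 count). Tomm20 and Ppargc1a, an import receptor and a coactivator of mitochondrial genes, were the lower ones, at 1.57 against 175 CPM and 2.36 against 72.8 CPM. Of the genes for phosphate and oxygen storage 5 of 8 were higher and 2 lower (median 4.23, 3.97 without adult F to 6.92 without adult H); Ak1, the cytosolic adenylate kinase, was at least 77.9-fold higher (leaving out adult F at least 49.5). Among the lower was Ak4, an adenylate kinase of mitochondria, counted in 1 cultured cell and in no adult cell.

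Glycolysis was split: 9 of 20 genes were higher, 6 lower and 5 neither, median 1.66 (1.22 without adult G to 2.02 without cultured F). That is 45% higher and 30% lower, beside 17.9% and 65.4% of all measured genes. Pgam2, the muscle phosphoglycerate mutase, had 369 to 5532 CPM (median 4812) and 0 to 1716 CPM (median 0), 19.6-fold higher (14.4 to 27.5, leaving out cultured A 118). Aldoa, the muscle aldolase, had 4704 to 14754 CPM (median 6788) and 0 to 6495 CPM (median 134), 6.97-fold higher (6.12 to 7.97, leaving out cultured F 13.1). Lower were Hk1, Slc2a1, Pfkp, Pgk1, Pfkfb2 and Slc16a1, a lactate and pyruvate transporter, which was 63.2-fold lower (30.6 to 151, leaving out adult H 422 on 1 count, cultured H 0.872 on 1 count). Hk1 and Slc2a1 had no adult count and 18 and 22 cultured counts.

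**Figure D3:**
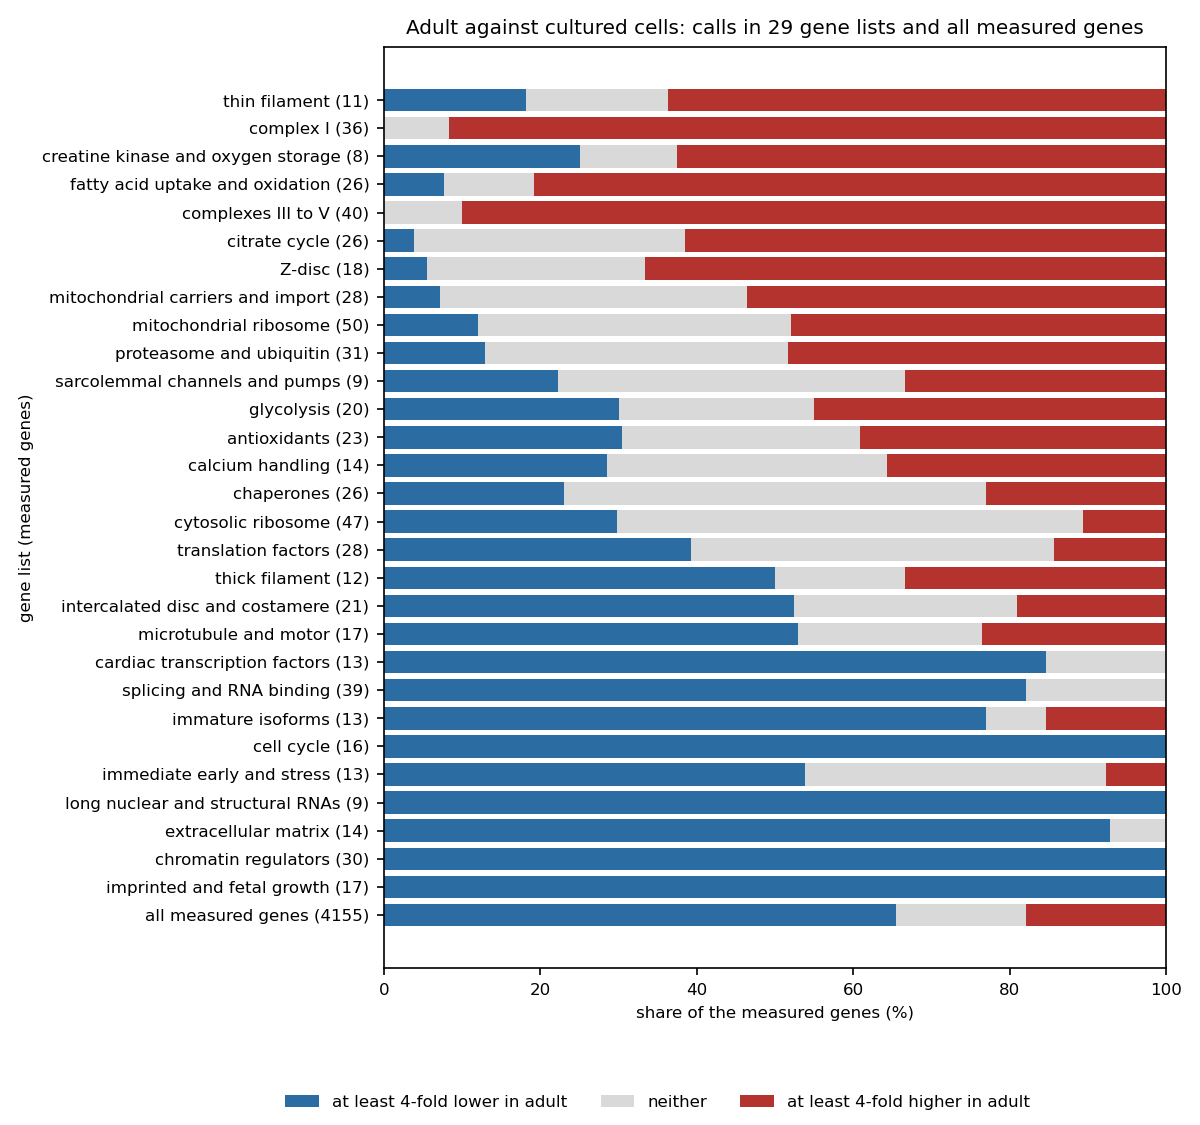
Share of the measured genes of each list (number in brackets) that were at least 4-fold lower in adult cells (blue), at least 4-fold higher (red) or neither (grey), ordered by median log2 ratio with all 4155 measured genes at the bottom. Complex I, with 33 of 36 genes higher, stands against chromatin regulators, with 30 of 30 lower, and 65.4% of all measured genes were lower.

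Protein synthesis showed no single direction. Cytosolic ribosomal protein genes were lower in 14 of 47 cases, higher in 5 and neither in 28, median -1.12 (-1.60 without cultured B to -0.50 without cultured G), and over cultured cells A to E alone the median was 1.06. The list was 29.8% lower and 10.6% higher, where all measured genes were 65.4% lower and 17.9% higher with a median of -4.74. In cultured cells these genes took 0.0790 to 4.995% (median 1.28%) of counts, against 0.774 to 1.13% (median 0.964%) in adult cells. Rps14 had 0 to 1252 CPM (median 577) in adult cells and 0 to 7104 CPM (median 1378) in cultured cells, with 51, 79, 161 and 161 of the 456 cultured counts in A, F, G and H; it was 4.37-fold lower (3.87 to 4.94, leaving out adult A 3.60, adult D 3.95, cultured F 3.97, cultured G 3.18, cultured H 3.20), and on the other side over cultured cells A to E alone, with a log2 ratio of 0.38. Rpl3l, a ribosomal protein of striated muscle, went the other way, with 0 to 821 CPM (median 109) and no cultured count, at least 16.2-fold higher. Translation factors were lower in 11 of 28 cases and higher in 4 (median -1.28, -1.87 without adult C to -0.82 without cultured G), or 39.3% lower and 14.3% higher, also less to the lower side than all measured genes. Npm1 was in all 8 cultured cells, at 435 to 2889 CPM (median 973), and at 0 to 249 CPM (median 0) in adult cells, 36.9-fold lower (26.5 to 52.4, leaving out adult F 94.4). Eef1a1, the common elongation factor, was in all 8 cultured cells at 35.9 to 7536 CPM (median 1664) and in adult cell F alone, with 127 counts; it was 23.2-fold lower (19.05 to 28.5, leaving out adult F at least 899) and had no count in the transplanted cells. Its muscle and nerve form Eef1a2 had 65 adult counts in 3 cells and no cultured count. Mitochondrial ribosomal proteins were higher in 24 of 50 cases and lower in 6 (median 1.89, 1.72 without cultured H to 2.50 without cultured A); Mrpl42 was 10.9-fold higher (8.001 to 15.3, leaving out cultured A 49.4) and Mrpl32 12.2-fold lower (9.08 to 16.4, leaving out adult C 21.3, adult H 19.999).

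Protein turnover genes were higher in 15 of 31 cases and lower in 4 (median 1.87, 1.38 without cultured D to 2.09 without cultured G). For this list and the next 2, all measured genes stood at 17.9% higher and 65.4% lower, with a median of -4.74. Psmb6, a catalytic subunit of the proteasome, was 4.83-fold higher (3.71 to 6.40, leaving out adult D 3.999, cultured B 3.88, cultured F 16.7), whereas Ube2d3, a ubiquitin-conjugating enzyme, had 0 to 201 CPM (median 0) and 0 to 6224 CPM (median 729), 24.3-fold lower (18.8 to 31.7). Chaperones had 6 higher and 6 lower of 26 (median -0.01, -0.30 without cultured D to 0.52 without cultured B, and 1.03 with DESeq2 size factors). Hspa9, of the mitochondrial matrix, was 9.11-fold higher (5.18 to 17.7, leaving out adult D 6.02, cultured B 38.5 on 2 counts), and Hsp90aa1, the inducible cytosolic form, 22.8-fold lower (14.6 to 36.6, leaving out adult D 260.3 on 2 counts, cultured D 6.31). The higher Hsph1 rested on 348 counts of adult cell F. Antioxidant and iron storage genes had 9 higher and 7 lower of 23 (median 0.41, -0.09 without cultured B to 1.77 without cultured F), and a median of 3.22 over cultured cells A to E. The 2 ferritin subunits parted: Fth1, the heavy chain, had 2575 to 17927 CPM (median 9359) and 0 to 7243 CPM (median 514), 5.06-fold higher (4.58 to 5.60, leaving out cultured B 3.57, cultured H 7.89), and Ftl1, the light chain, 0 to 669 CPM (median 25.4) and 0 to 8914 CPM (median 1579.7), 14.9-fold lower (12.7 to 17.6, leaving out adult G 28.9). Ferritin genes have many processed copies, so reads may be split. Mgst3, a microsomal glutathione transferase, was 14.8-fold higher (10.5 to 21.7, leaving out cultured G 30.2), and Cat, catalase, 278-fold lower (47.3 to 11202, log2 ratio -6.53 with 1 set to 3 counts, leaving out adult C at least 82.02, cultured H 62.8 on 1 count).

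Nuclear functions lay on the lower side, which 65.4% of all measured genes shared with a median of -4.74. These medians were smaller in size when depth was made equal: in cells thinned to 16099 counts each, where the floor of 3 counts stood at the same CPM in both groups, the median was -1.74 over all measured genes, -2.59 for chromatin regulators, -3.04 for splicing and RNA binding, -3.56 for imprinted genes, -2 for matrix genes and -2.59 for the cell cycle. All 30 measured chromatin regulators were lower (median -6.11, -6.00 without adult F to -4.87 without cultured B), 20 of them without an adult count. Ncor1, a nuclear receptor corepressor, had 0 to 4145 CPM (median 404) in cultured cells and no adult count, at least 481-fold lower (leaving out cultured H at least 314). Kmt2e, of the histone methyltransferase family, had 0 to 3014 CPM (median 333) and 2 adult counts, 549-fold lower (149.7 to 4567, log2 ratio -8.52 with 2 set to 3 counts, leaving out adult D at least 322). H3f3b, a replacement histone, had 0 to 7703 CPM (median 871) in cultured cells and counts in adult cell C alone, 206-fold lower (116 to 401, leaving out adult C at least 729, cultured H 126). The list took 0 to 0.0305% (median 0.0195%) of an adult and 0.567 to 2.04% (median 0.661%) of a cultured cell's counts, without overlap. Splicing and RNA-binding genes were lower in 32 of 39 cases and higher in 0 (median -5.13, -5.58 without adult G to -4.77 without adult A). Ddx5, an RNA helicase, had 0 to 423 CPM (median 0) and 0 to 1809 CPM (median 1142), 17.7-fold lower (13.7 to 22.96, leaving out adult C 57.3). Srrm2, a component of nuclear speckles, was 136-fold lower (67.4 to 319, leaving out adult H 226, cultured D 57.1), and Srsf11, a splicing factor, at least 286-fold lower (leaving out cultured F at least 81.3). Hnrnpk was in all 8 cultured cells and 3 adult cells, at 31.5 against 538 CPM.

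Imprinted and fetal growth genes were lower in all 17 measured cases (median -6.59, -7.05 without cultured B to -6.18 without cultured G), and 16 of them had no adult count. Over all measured genes 65.4% were lower, with a median of -4.74. Gpc3, a glypican that restrains growth, had 0 to 3559 CPM (median 562) in cultured cells, at least 329-fold lower (leaving out cultured H at least 174). Mest, expressed from the father's copy, had 0 to 2327 CPM (median 244), at least 247-fold lower, and Peg3, another such gene, 0 to 4688 CPM (median 154), at least 695-fold lower (leaving out cultured B at least 155). H19 was in all 8 cultured cells, at 32.9 to 12476 CPM (median 368), at least 1145-fold lower (leaving out cultured H at least 602). Mouse transplanted cells had no count of any of these 4. Matrix genes were lower in 13 of 14 cases (median -6.10, -6.24 without cultured F to -5.54 without cultured H). Vcan, the proteoglycan versican of the developing heart, had 0 to 18505 CPM (median 4517) and no adult count, at least 3314-fold lower; 1611 of its 1612 counts lay in cultured cells B to E. Fn1, fibronectin, had 0 to 1549 CPM (median 214), at least 201-fold lower. Fibroblast markers moved the same way: Col1a2, Pdgfra and Vim, the 3 measured of 7 listed, were all lower, with 76 cultured counts of the list against 1 adult count. They took 0 to 0.000582% (median 0%) of an adult and 0 to 0.109% (median 0.0340%) of a cultured cell's counts, with Dcn, Col3a1, Lum and Postn at 0 in the cultured cells; their part in the matrix result was not tested.

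Cell cycle genes were lower in all 16 measured cases (median -5.35, -5.71 without cultured B to -5.08 without adult A), beside 65.4% of all measured genes. Most came from few cells: Ccnb1, the mitotic cyclin, and Top2a, a topoisomerase of dividing cells, were each in 2 cultured cells. Ccnb1 was at least 187-fold lower (leaving out cultured F at least 11.3) and Top2a at least 167-fold lower (leaving out cultured E at least 15.6). Ccnd2, a cyclin of the G1 phase, had adult counts too, at 0 to 188 CPM (median 0) against 0 to 2074 CPM (median 121), 6.55-fold lower (4.77 to 9.01, leaving out adult A 11.4, cultured G 3.29). Cardiac transcription factors were lower in 11 of 13 cases and higher in 0 (median -4.50, -4.71 without cultured D to -4.24 without adult H). Myocd, a coactivator of serum response factor, had 0 to 2116 CPM (median 288) and 3 adult counts, 292-fold lower (97.9 to 1432). Mef2c, which drives muscle genes, was 6.17-fold lower (4.65 to 8.18, leaving out adult F 581 on 1 count, cultured H 1.42), and Tead1, which binds the M-CAT site, was 3.72-fold lower (2.85 to 4.85, leaving out adult A 18.2, cultured B 4.09, cultured D 2.22, cultured G 4.18, cultured H 4.12). Over cultured cells A to E alone, Mef2c and Ccnd2 were under the 4-fold line and Tead1 was past it.

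Microtubule genes were lower in 9 of 17 cases and higher in 4 (median -3.78, -3.96 without cultured H to -2.87 without cultured F), that is 52.9% lower and 23.5% higher, fewer lower than the 65.4% of all measured genes, of which 17.9% were higher (median -4.74). Macf1, which links microtubules to actin, had 0 to 245 CPM (median 0) and 0 to 7961 CPM (median 695), 93.7-fold lower (64.8 to 141, leaving out adult B 2551 on 1 count, cultured D 55.6). Map1lc3a, a protein of the autophagosome membrane, was 38.6-fold higher (16.5 to 119). In the pair of alpha tubulins, Tuba4a took 99.7% (99.6 to 99.9%) against Tuba1a in adult and 0% (0 to 11.2%) in cultured cells. Immediate early and stress genes were lower in 7 of 13 cases and higher in 1 (median -5.56, -5.48 without adult B to -1.77 without cultured H), and the median was -1.06 over cultured cells A to E. They were 53.8% lower and 7.69% higher, again with fewer lower than over all measured genes. Hif1a, the oxygen-regulated factor, had 0 to 2780.1 CPM (median 90.5) in cultured cells and 6 counts in adult cell D, 212-fold lower (95.6 to 584, leaving out adult D at least 372, cultured B 53.9). Bnip3l, which marks mitochondria for removal, was 55.5-fold lower (26.7 to 133, leaving out adult C 197 on 2 counts). Long nuclear and structural RNAs were lower in all 9 cases (median -5.57, -5.78 without cultured D to -5.30 without cultured G). Malat1 was in all 16 cells, at 151 to 3832 CPM (median 835) in adult and 1758 to 30339 CPM (median 9219) in cultured cells, 11.2-fold lower (10.5 to 11.96); the ranges overlapped. Kcnq1ot1, the RNA that silences an imprinted cluster, had 0 to 15529 CPM (median 5314) in cultured cells and 42 counts in adult cell F, 163-fold lower (119.6 to 227, leaving out adult F at least 2083).

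**Figure D4:**
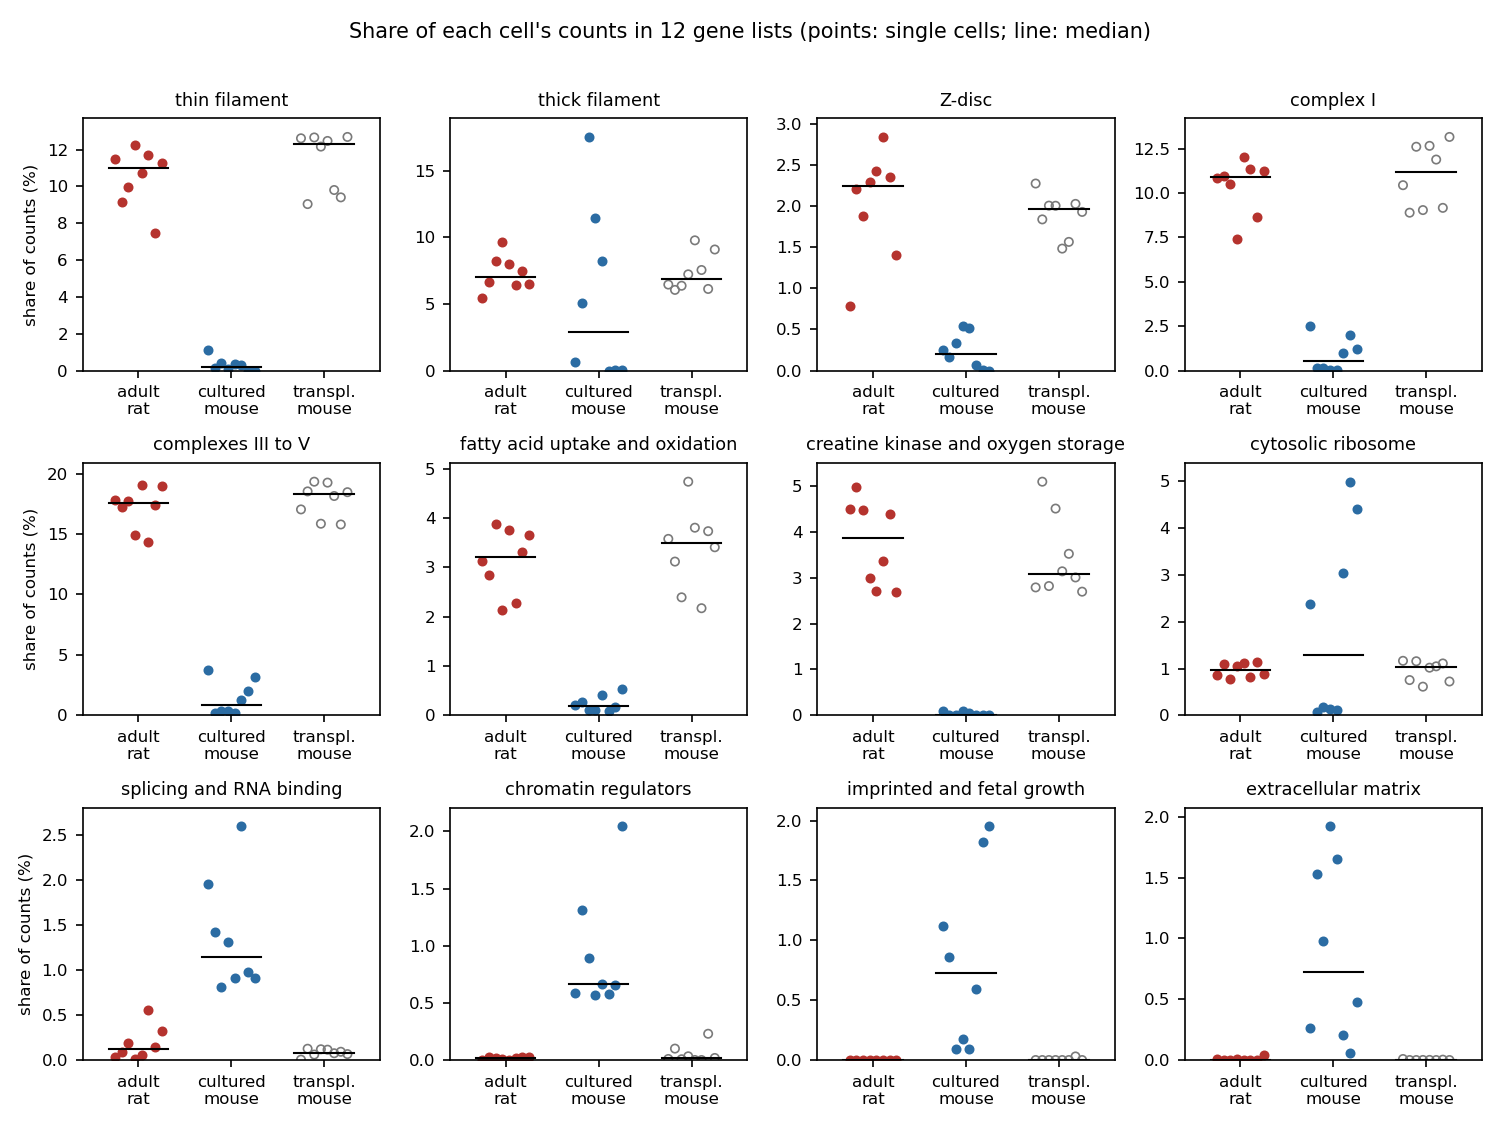
Share of each cell's counts, in percent, taken by 12 gene lists in 8 adult rat, 8 cultured mouse and 8 transplanted mouse cells; points are single cells and lines are medians. Adult cells lie above every cultured cell for thin filament, Z-disc, respiratory chain, fatty acid and creatine kinase genes and below every one for splicing, chromatin, imprinted and matrix genes, while thick filament and cytosolic ribosome shares overlap.

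Adult cells also varied among themselves. Ldha was absent from adult cells A and B and had 68 to 354 counts in the other 6, 0 to 2191 CPM (median 1451); it was 2.19-fold higher (1.81 to 2.68, leaving out cultured A 3.76), short of 4-fold on the plain totals and past it under TMM scaling. Ldhb in turn was highest in adult cell A, with 1412 counts, and lowest in D, with 20. Acta1 had 511, 392, 130 and 105 counts in adult cells C, G, F and H and 3 or fewer in the other 4. For Des, 309 of 484 adult counts lay in cell G, and without that cell its ratio fell under the 4-fold line: it was 6.54-fold higher (3.71 to 12.7, leaving out adult G 2.73, cultured F 71.4 on 1 count). Cct8, of the cytosolic chaperonin, had all of its 646 adult counts in cell D. The cultured cells differed in step across several genes: Ttn, Slc8a1 and Vcan had nearly all counts in cells B to E, and ribosomal proteins such as Rpl32 had 331 of 331 in A, F, G and H. The median exon length weighted by counts was 6544 to 6983 bp in B to E and 3730 to 4933 bp in the other cultured cells. In adult cells it was 2044 to 2353 bp. Long nuclear and structural RNAs took 16.7 to 17.7% of counts in B to E and 2.97 to 5.67% in the other cultured cells. The part of library make-up was not tested.

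**Figure D5:**
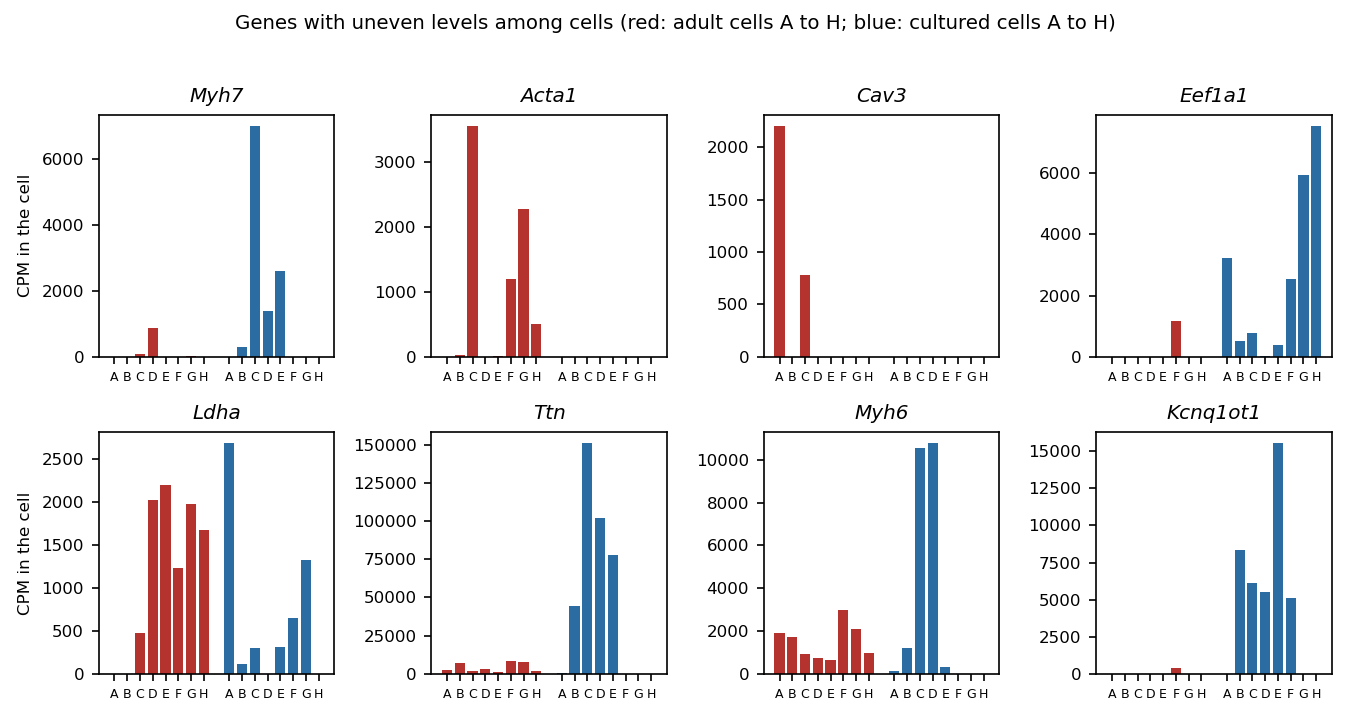
Level in CPM of 8 genes in each adult rat cell (red, A to H) and cultured mouse cell (blue, A to H); every axis starts at 0. Nearly all adult counts of Cav3, Eef1a1 and Acta1 come from 1 to 4 cells, and nearly all cultured counts of Ttn and Kcnq1ot1 lie in cells B to E and B to F.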

How the data were processed

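Counts per gene and cell were used as deposited: reads of all 24 single-cell libraries had been aligned to mm10 with TopHat2 2.1.0 and counted with HTSeq, and DESeq2 had been used, per the submitters' processing notes. Per the labels' protocols, single cells were reverse transcribed with SMARTscribe, amplified by 19 cycles of PCR and tagmented with Tn5. The strand setting, the annotation and the rule that left 9595 genes in the table are not stated in these sources; of these symbols, 9343 matched the mm10 annotation (GENCODE M21) directly and 180 by an older name (99.2%).

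Each sample is 1 cell and no animal or culture is named, so each group was taken as 1 sample and no test, p-value or standard error was computed. Counts were summed over 8 cells and scaled to 1000000. A gene was measured with at least 50 CPM in either group and called higher or lower at 4-fold, after sums under 3 counts were set to 3; this floor served calls, order and list medians, while a printed ratio with 1 to 3 counts in a group is that of the counts with its interval. Intervals are exact: Clopper-Pearson for shares and the conditional binomial for ratios. Depth set the floors, 2.36 CPM over 1271528 adult counts and 14.6 CPM over 206178 cultured counts. The cells of a group all differed beyond sampling noise (lowest chi-square per degree of freedom 13.6), so each library was counted once.

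Named were the 15 highest and 15 lowest ratios (at least 200 CPM, counts in at least 6 cells of the higher group, called alike with equal cell weights and without each cell in turn; ribosomal protein and clone-named genes left out), the 4 most abundant members of each list, the genes of the reported pairs (at least 20 counts in each group), list members of at least 200 CPM called against their list's median, and markers with counts. Members and lists were chosen with earlier results of these data known. Close copies, such as actins, tubulins, ferritins, elongation factors and ribosomal proteins, may share reads. The ratios were recomputed with TMM factors (edgeR 4.0.16) and DESeq2 1.42.0 size factors (R 4.3.3), equal cell weights, other filters, floors and folds, thinned cells and left-out cells. The calculations used Python 3.11.15, numpy 2.4.6, scipy 1.17.1, pandas 2.3.3 and matplotlib 3.10.9, and were tested on simulated data. Mitochondrially encoded genes, reporter genes and haemoglobins were not analysed here, and a few other genes are not reported.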

Additional observations from a re-analysis of the deposited data

Results flagged for a closer look

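In 8 of the 68 list shares looked at, the highest or lowest cell of a group stood far from the other 7 for the spread of the group. The same held for 1 total and 2 pair shares. For normally distributed values, chance alone sets about 1 in 20 groups apart in this way. That rate need not hold for shares with many zeros. Cultured cell A had the highest share of thin filament genes, 1.14% of its counts against 0 to 0.404% in the others, of immature isoforms, 1.92% against 0.151 to 0.855%, and of atrial markers, 1.17% against 0.00419 to 0.471%. Cultured cell B had 60789 counts, against 16099 to 27885 in the other 7 cultured cells. Immediate early and stress genes took 1.14% of cultured cell H, of which Atf4 was the main part, against 0.0681 to 0.550%.

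Among adult cells, A had 0.640% of its counts on intercalated disc and costamere genes, against 0.0794 to 0.324%, with Cav3 highest there. Adult cell D had 0.915% on chaperones, against 0.265 to 0.515%, and 0.00716% on atrial markers, against 0 to 0.00223%. In the same cell Myh6 took 46.2% of its counts with Myh7, against 91.3 to 100% in the other adult cells. Adult cell H had 0.0374% of its counts on matrix genes, against 0 to 0.00760%. Tuba4a took 97.4% of its counts with Tuba1a in adult cell C and 100% in the other 7.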

How the results depend on the processing

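The count of higher genes stayed within 1.5 times of 744 in every alternative tried except a line of 8-fold, which left 450, and the count of lower genes within 1.5 times of 2718 except without a minimum level, which gave 6118. That last count holds genes with at most 3 counts in each group, which the unequal floors alone put past 4-fold. Without 1 cell the counts were 666 to 780 higher and 2444 to 2861 lower, with cultured cell B giving both lowest values, and the pairs with a larger adult share were 18 to 20. Cells thinned to 16099 counts gave 646 higher and 1894 lower genes. The median of all measured genes was then -1.74 in place of -4.74. Most list medians moved toward 0, among them matrix from -6.10 to -2, chromatin from -6.11 to -2.59, imprinted from -6.59 to -3.56, cell cycle from -5.35 to -2.59, splicing from -5.13 to -3.04, immediate early from -5.56 to -2.19 and creatine kinase and oxygen storage from 4.23 to 2. A single floor in CPM gave -3.48, -3.70, -3.97, -2.87 and -3.54 for the first 5 of these, and -2.415 over all measured genes. In thinned cells 4 medians lay slightly further from 0. They were those of calcium handling (0.29 to 0.41), cytosolic ribosome (-1.12 to -1.22), chaperones (-0.01 to -0.14) and citrate cycle (3.1004 to 3.1029). Cultured cells A to E alone, and 1 floor in CPM for both groups, were tried after seeing the data. Of 92 ratios printed 86 were at least 4-fold, and 81 of these were so in the same direction over cultured cells A to E alone; the others were Rps14, whose log2 ratio turned to 0.38, and Ccnd2, Ftl1, Mef2c and Slc16a1, at -0.66, -1.58, -0.88 and -1.76. Xirp1 ranged from a log2 ratio of -4.39 without adult B to 0.34, turned, without cultured D. TMM and DESeq2 scaling took Asph, Ccnd2, Mef2c and Rps14 under 4-fold and Ldha and Mdh1 past it, by the construction of the shift. Among list medians the sign was not held by cytosolic ribosome (1.06 over cultured cells A to E), calcium handling (-0.89 without a minimum level), channels and pumps (-1.66 without one, -1.42 in thinned cells), antioxidants (-0.09 without cultured B), chaperones (1.03 with DESeq2 factors) and thick filament (0.06 with at least 10 counts over both groups). Without a minimum level, members with at most 3 counts in each group stood at the ratio of the floors, -2.62, whatever their counts. No paired analysis was possible because the letters A to H only name cells and no result comes from a test. Depth limits what is absent: a cultured sum of 0 allows up to 14.6 CPM, an adult one 2.36 CPM.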
